A study of Mus musculus with 18 samples.

Results

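The imprinted Dlk1-Dio3 domain of the mouse carries a large group of miRNA hairpins, and 100 probes for their mature arms were read out of 1265 miRNA probes in splenic B cells. Members were taken by name: every probe for an arm, letter or copy of 47 numbered mouse miRNAs was kept, whatever its value, and all 47 numbers were found. Each member has 1 spot on an array, and none carried a quality mark or a second name. The study measured RNA of spleen B cells on 18 one-colour arrays, 9 for mRNA and 9 for miRNA, and the 9 miRNA arrays are described here. Of these, 3 are from wild-type mice (WT), 3 from transgenic founder line 9, called Tg9, and 3 from founder line 79, called Tg79. Both lines carry a miR-17~92 transgene, a polycistron of growth-promoting miRNAs, driven by the Eμ enhancer and the IgH promoter so that it acts in B cells; wild-type mice carry none. B cells of every group were isolated from spleen with magnetic beads and their total RNA was taken with Trizol. Age, strain and sex of the mice are not given in the sources used here, and each line stands for 1 founder. The design speaks of 3 mice but the labels tie no array to a mouse, so a p-value measures the spread between these arrays, which may be technical.

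The domain is imprinted, so that a gene is expressed mainly from the copy of a single parent. Dlk1, Rtl1 and Dio3, which code for proteins, are expressed from the paternal chromosome, while the long RNAs Meg3, Rian and Mirg and the miRNAs that lie among them come from the maternal one, under a methylated control region between Dlk1 and Meg3. The miRNAs are known from embryo, placenta and brain, and are low in most adult tissues. Arms opposite to Rtl1, such as miR-127 and miR-136, cut the Rtl1 transcript, and miR-134 acts on dendritic spines of neurons.

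RefSeq (build GRCm38.p6), searched by exact name, held a mature sequence for 96 of the 100 members. Of these, 95 arms of 50 hairpins lie on chromosome 12 within 180 kb, chr12:109563692-109743795. The remaining arm, miR-496b, lies on chromosome 19, so that its name meets the rule but its position is outside the domain. The hairpins stand in groups along the locus: 22 arms of 11 hairpins lie in Meg3 and Rtl1, 4 arms in Rian, 1 arm of miR-882 on its own and 68 arms of 36 hairpins from miR-379 to miR-410, of which 16 lie inside Mirg. The sequences of the arms that gave signal on at least 3 arrays are shown first, because every comparison rests on them. Missing from the list is miR-487b-3p, which gave signal on all 9 arrays but for which no sequence was found under that name. Capitals mark the seed, bases 2 to 8, with which a miRNA pairs to its targets. The first 7 come from hairpins in Meg3, Rtl1 and Rian, and the others from the miR-379 to miR-410 stretch.
miR-770-3p: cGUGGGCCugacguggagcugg
miR-770-5p: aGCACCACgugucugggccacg
miR-431-3p: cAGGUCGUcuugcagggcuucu
miR-370-3p: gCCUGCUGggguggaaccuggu
miR-540-3p: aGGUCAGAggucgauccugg
miR-665-3p: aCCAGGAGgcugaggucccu
miR-665-5p: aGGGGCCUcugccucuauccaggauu
miR-494-3p: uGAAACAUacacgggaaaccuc
miR-667-5p: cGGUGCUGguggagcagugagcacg
miR-667-3p: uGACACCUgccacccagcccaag
miR-409-3p: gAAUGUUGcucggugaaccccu
miR-323-5p: aGGUGGUCcguggcgcguucgc
miR-668-3p: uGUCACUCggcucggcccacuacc
miR-134-3p: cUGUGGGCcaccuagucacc
miR-380-5p: aUGGUUGAccauagaacaugcg

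Shown next are best-known arms of the domain whose probes were above the negative control limit on 2 arrays at most. Other best-known arms, miR-370-3p, miR-380-5p and miR-494-3p, gave more signal and are shown above. miR-1193-5p is added because miR-379-5p shares its seed.
miR-127-3p: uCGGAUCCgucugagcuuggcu
miR-136-5p: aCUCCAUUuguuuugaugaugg
miR-134-5p: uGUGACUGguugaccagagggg
miR-154-5p: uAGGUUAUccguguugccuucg
miR-379-5p: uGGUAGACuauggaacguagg
miR-1193-5p: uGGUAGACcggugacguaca
miR-410-3p: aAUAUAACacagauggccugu
miR-495-3p: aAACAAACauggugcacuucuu
The 96 arms carried 89 different seeds. Of these, 7 seeds were shared by a pair of members, 14 arms in all, and none of the 14 was tested. Each tested arm with a sequence therefore had a seed of its own within the domain. Some members differ by little: miR-376c-5p and miR-376b-5p were 95.5% identical and miR-379-3p and miR-411-3p 90.9% identical, so that their probes could bind each other's target.

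Values are the median pixel intensity of a spot. The limit of an array was the 95th percentile of its 24 negative control spots and lay between 46.8 and 76.0. A probe above it on at least 3 of 9 arrays was called tested. Over all miRNA probes 24.4% to 42.6% lay above the limit, and 0 of 1664 blank spots did so on 3 or more arrays. Of the lymphocyte list 6 of 6 probes were above the limit on all 9 arrays, and liver miR-122-5p was above it on none. The lymphocyte probes ran from miR-181b-5p, at up to 2.56 times the limit, to miR-150-5p, at up to 203 times. miR-150-5p of mature lymphocytes had an intensity of 825 and 409.9 on Tg79-1 and Tg79-2, against 4858 on Tg79-3, 3145 to 9621 in Tg9 and 7430 to 8477 in wild type, so these 2 Tg79 arrays stood apart. Markers of other cells were present. Of the red cell list 2 of 3 probes were tested, with miR-451a at up to 4.56 times the limit. miR-144-3p was above it on no array. The mesenchyme list had 4 of 5 probes tested, and miR-214-3p passed the limit on all 9 arrays, at up to 2.65 times. The rest of this list lay close to the limit, with highest ratios of 1.13 to 1.24. Mesenchyme probes above the limit numbered 1, 4 and 4 on the Tg9 arrays and 4, 5 and 1 on the Tg79 arrays. In wild type they numbered 4, 2 and 2. miR-126-3p of endothelium reached 1.42 times the limit, and of the neuron list 0 of 2 were tested, with miR-9-5p at 2.30 times on 1 array, Tg79-2. miR-223-3p of myeloid cells had 93.3, 66.8 and 63.1 in Tg79, 215, 188 and 194 in wild type and 479, 179 and 76.9 in Tg9. The part of these cells in any level below was not tested. The transgene's own arms, averaged on the log2 scale, stood at 9.35 to 10.25 in Tg79 and at 7.68 to 7.98 in wild type. Tg9-1 stood at 9.31, but the arrays labelled Tg9-2 and Tg9-3 at 7.99 and 8.02, close to wild type and against their label, so results with Tg9 are also given without these 2 arrays; Tg9 is then 1 array, taken to vary like the arrays of the other groups. The 3 Tg9 arrays lie on slide 1 with WT1, the 3 Tg79 arrays on slide 2 with WT2, and WT3 on slide 3.

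Most of the domain's miRNAs gave no signal above negative controls. Of the 100 arms, 75 were above the limit on no array, 9 on 1 or 2 arrays and 16 on at least 3. Among the 1165 other miRNA probes 41.6% were above it on at least 3 arrays, against 16% of the members. On all 9 arrays the limit was passed by 9 members and by 273 others, or 23.4%. By array, 14, 17 and 18 members were above the limit in Tg9, 10, 15 and 12 in Tg79 and 21, 17 and 14 in wild type, so the groups overlap. The low counts in Tg79 stood beside low counts over all probes on the same arrays, where 24.4% to 32.3% of probes passed. In such bulk RNA, fewer cells of a type that makes a miRNA and less miRNA per cell cannot be told apart.

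**Figure D1:**
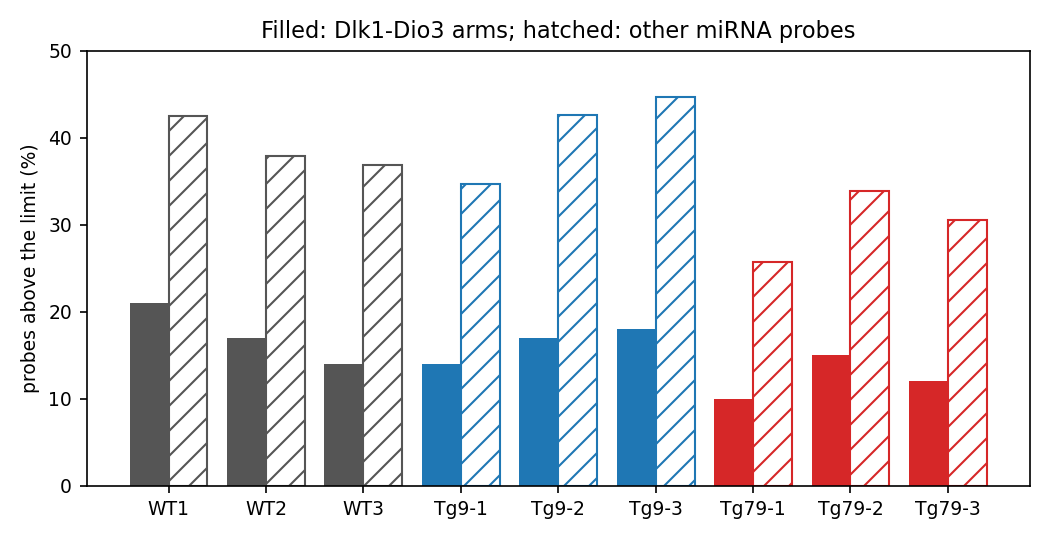
Share of probes above the negative control limit (percent, vertical axis) on each of 9 arrays. Filled bars are the 100 Dlk1-Dio3 arms and hatched bars the 1165 other miRNA probes, coloured by group; on every array the filled bar, at 10% to 21%, is below the hatched one, at 25.7% to 44.7%.

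Of the 84 members that were not tested, the ratio of intensity to limit on single arrays was 0.695 to 1.09 with a median of 0.846. This includes most of the well-studied arms. miR-127-3p, an Rtl1-side arm, had intensities of 53.7, 51.6 and 43.9 in Tg9, 64.6, 49.8 and 59.3 in Tg79 and 58.7, 53.4 and 65.0 in wild type. It was above the limit on 2 arrays, 1 of Tg9 and 1 of wild type, and no group stood apart. miR-758-5p and miR-341-3p came next among the members not tested, at up to 1.06 and 1.05 times the limit, and miR-134-5p was above it on 1 array. miR-136-5p, miR-154-5p, miR-376a-3p, miR-379-5p, miR-410-3p, miR-411-5p, miR-433-3p, miR-434-3p and miR-495-3p were above it on none. At these intensities a level below the limit is not detectable, which does not show that a miRNA is absent.

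miR-494-3p was the brightest member on every array. This arm, at chr12:109715367-109715388 on the plus strand of GRCm38.p6, lies outside the annotated Meg3, Rtl1, Rian and Mirg. Its intensity was 431.3, 508 and 1931 on the Tg9 arrays. It was 1030, 1186 and 345 on the Tg79 arrays. It was 1595, 452 and 823 in wild type. High and low arrays occurred in each group and the groups overlap fully. These intensities were 5.59 to 41.3 times the limit of the array, and ranked the probe from 31 to 93 among 1265. Its other arm, miR-494-5p, was above the limit on 2 arrays.

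miR-770-3p and miR-370-3p came next. miR-770-3p, from a hairpin within Meg3, lay at 1.84, 2.22 and 3.10 times the limit in Tg9, 2.04, 1.80 and 1.68 times in Tg79 and 3.19, 1.86 and 4.40 times in wild type. miR-370-3p, from a hairpin within Rian, had intensities of 84.2, 113 and 115 in Tg9, 89.2, 83.9 and 70.1 in Tg79 and 171, 102 and 272 in wild type. For both, WT1 and WT3 were the highest arrays in ratio or intensity, and these are also the arrays with the brightest upper quartile over all probes, 86.0 and 92.2 against 62.4 to 75.1 elsewhere. The further members above the limit on all 9 arrays were miR-431-3p, miR-487b-3p, miR-540-3p, miR-665-3p, miR-667-3p and miR-667-5p, at 1.00 to 2.16 times the limit. miR-665-5p and miR-770-5p passed it on 8 arrays, miR-323-5p and miR-409-3p on 7, miR-134-3p and miR-668-3p on 6 and miR-380-5p on 3. Members just inside the rule for testing therefore lay at the limit itself.

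**Figure D2:**
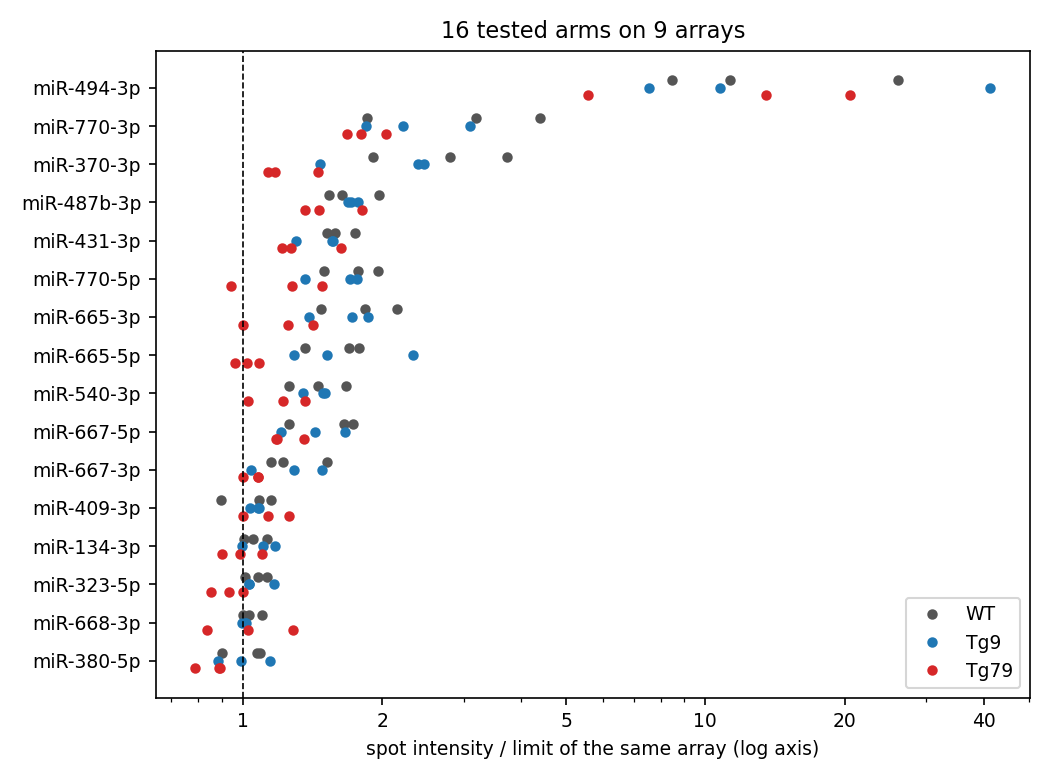
Spot intensity divided by the limit of the same array (horizontal log axis) for the 16 tested members, 1 point per array coloured by group; the dashed line is the limit. miR-494-3p spans 5.59 to 41.3 with all groups mixed, and the members below miR-370-3p lie close to the limit.

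Along the locus the tested arms were spread over both ends. In Meg3 and Rtl1 6 of 22 arms were tested (27.3%), in Rian 1 of 4 and from miR-379 to miR-410 8 of 68 (11.8%). Left out of these counts is miR-487b-3p, tested but without a sequence found under its name. The other arm of its hairpin, miR-487b-5p, lies in the miR-379 to miR-410 stretch. Among arms with a sequence, tested ones came from 12 hairpins, and both arms were tested for miR-665, miR-667 and miR-770 alone. Of 15 probes for further arms of the locus that the naming rule leaves out, 8 were tested, and miR-3072-5p and miR-3072-3p reached 13.4 and 9.76 times the limit.

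**Figure D3:**
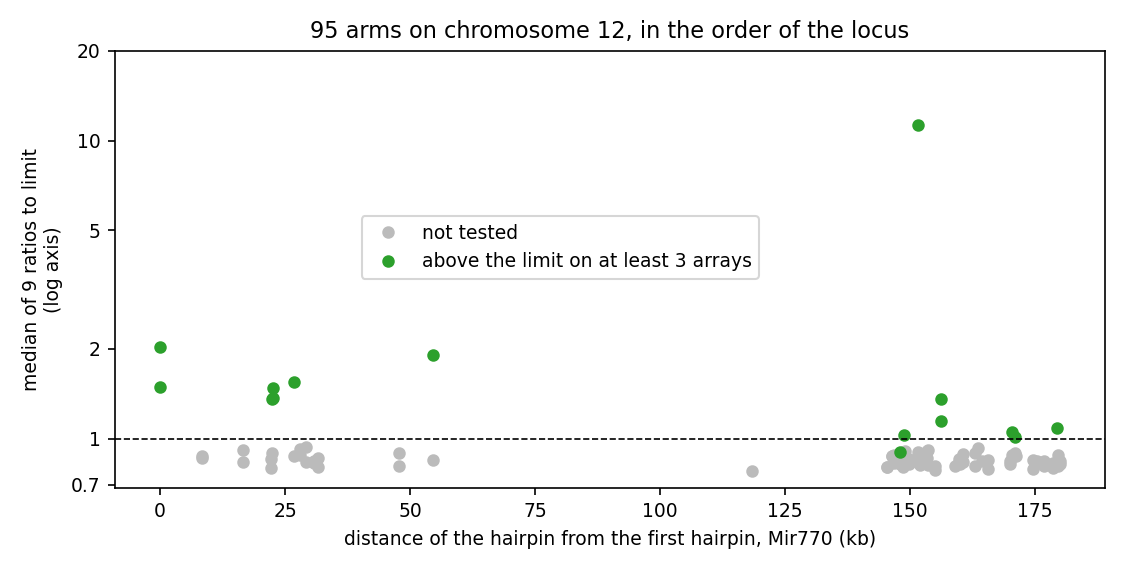
Median over 9 arrays of the ratio to the limit (vertical log axis) against the distance of the hairpin from the first one, Mir770, in kb, for 95 arms on chromosome 12. Green points are tested arms and grey points the others; miR-494-3p is the point far above the rest.

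The tested arms were rich in G and C. The median share of G and C was 65% in the 15 tested members with a sequence and 47.6% in the 81 that were not tested. Of members with at least 60%, 10 of 16 were tested (62.5%), against 0 of 17 below 40%, 2 of 31 from 40% to 50% and 3 of 32 from 50% to 60%. Other probes ran the same way, with 74.7%, 22.5%, 33.5% and 38.6% tested in these ranges. miR-494-3p, at 45.5%, was the member with high signal and few G and C. The part of base content in signal was not tested.

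**Figure D4:**
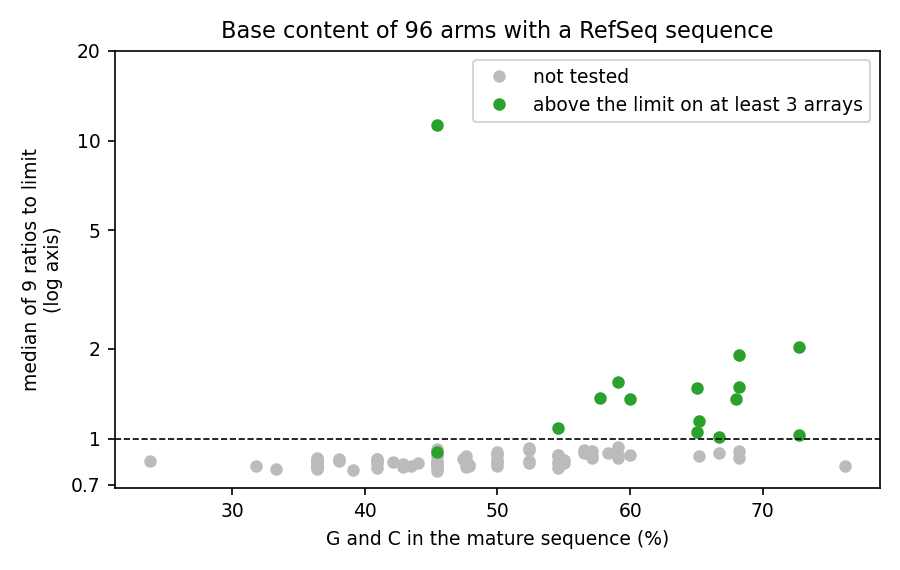
Share of G and C in the mature sequence (percent, horizontal axis) against the median over 9 arrays of the ratio to the limit (vertical log axis), for 96 members. Tested members (green) have a median of 65% and the others (grey) of 47.6%.

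The transgenic lines were compared with wild type on log2 levels after quantile normalization, in a limma model of the 3 groups fitted to all 501 tested probes, with Benjamini-Hochberg adjustment over these. No member passed an adjusted p of 0.05 for both lines against wild type, where 0% of all tested probes did. Unadjusted p was below 0.05 for 2 of 16 members and for 13.4% of all probes. The median log2 difference of the members was -0.01, beside -0.03 over all tested probes. For Tg9 against wild type 0 of 16 members and 0% of all probes passed, and 0 members and 0.599% of probes had an unadjusted p below 0.05. Groups overlapped for all 16 members in both comparisons, while 3.79% of probes for both lines and 5.59% for Tg9 had groups that did not overlap. Without the arrays labelled Tg9-2 and Tg9-3, 0 of 15 members passed in any of the comparisons, where 1.8% of probes passed for both lines, 5.39% for Tg79, 0.674% for Tg9 and 0.225% for Tg79 against Tg9.

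For Tg79 against wild type 0 of 16 members passed, against 4.59% of all tested probes (23 of 501; 3.59% higher and 0.998% lower in Tg79). Unadjusted p was below 0.05 for 2 members and for 24.6% of probes. The median difference was 0.01, beside -0.04 over all. The arrays of the groups did not overlap for 3 of 16 members, miR-409-3p, miR-370-3p and miR-665-5p, while 29.3% of all tested probes had groups that did not overlap. With 75th percentile scaling over the probes above the limit on all 9 arrays, 6 of 16 members and 36.9% of all probes passed, at a median of 0.54 beside 0.48 for all probes. One of these, miR-380-5p, was above the limit on no Tg79 array.

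miR-409-3p, from a hairpin inside Mirg, had the smallest p of the members. Its log2 level was 6.33, 6.50 and 6.37 in Tg79, 6.13, 6.14 and 5.97 in wild type and 6.15, 6.08 and 6.07 in Tg9. All 3 Tg79 arrays were above the other 6 on this normalized scale. Against the limit of the same array, Tg79 lay at 0.998, 1.26 and 1.13 times and wild type at 1.15, 1.08 and 0.898 times. Tg9 lay at 1.03, 1.08 and 1.08 times, so the higher level rests on values close to the limit. The difference between Tg79 and wild type was 0.32 ± 0.08 (SE, n = 3 per group) on the log2 scale, with an adjusted p of 0.0624 by limma. On slide 2, which holds all Tg79 arrays, the wild-type array was WT2 at 6.14. In intensity, before normalization, the groups overlap: Tg79 had 75.8, 72.7 and 69.9 and wild type 70.1, 57.8 and 65.5. The call depends on the model: the adjusted p was 0.0293 with a trended and robust variance, 0.0244 with array weights and 0.0403 with the slide as a random block, whose estimated correlation was negative (-0.14). In these settings 6.39%, 15.8% and 7.78% of all probes passed. The adjusted p was 0.531 with the slide as a factor and 0.121 with a replicate block. With the deposited background column the difference was -0.0030. Under 75th percentile scaling over bright probes, an alternative chosen after seeing the data, it was 0.89 with an adjusted p of 0.0206, where the median of all probes was 0.48.

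miR-370-3p had log2 levels of 6.61, 6.70 and 6.37 in Tg79, 7.10, 6.81 and 7.60 in wild type and 6.67, 6.94 and 7.07 in Tg9. Each Tg79 array was below each wild-type array, WT2 of the same slide included. In intensity, before normalization, myeloid miR-223-3p was also lower on each Tg79 array than on each wild-type array. After normalization 29.3% of all tested probes had Tg79 and wild-type arrays that did not overlap. The part of myeloid cells in the difference of miR-370-3p was not tested. The difference was -0.61 ± 0.21 (SE, n = 3 per group), with an adjusted p of 0.131 by limma. With the authors' values it was -2.01 with an adjusted p of 0.0174, where the median of all probes was -0.88, and with the deposited background column it was 0.18. Tg9 differed from wild type by -0.28, and for both lines together the difference was -0.44 with an adjusted p of 0.358.

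miR-665-5p, an Rtl1-side arm, had log2 levels of 6.37, 6.22 and 6.11 in Tg79, 6.63, 6.43 and 6.65 in wild type and 6.47, 6.47 and 7.02 in Tg9. The Tg79 arrays were the lowest 3 of the 9. The difference from wild type was -0.34 ± 0.16 (SE, n = 3 per group, limma adjusted p = 0.25). With the authors' values it was -1.87 (limma adjusted p = 0.03), where the median of all probes was -0.88 and 24.9% of them passed. On the Tg79 arrays miR-665-5p lay at 1.02, 1.08 and 0.959 times the limit, so the lower level rests on values at the limit. miR-487b-3p, next in order of p, differed by 0.29 ± 0.16 (limma adjusted p = 0.32), with Tg79 at 6.82, 6.72 and 7.16 and wild type at 6.50, 6.85 and 6.49. Its groups overlap, and under the bright-probe scaling its difference was 0.66 (adjusted p = 0.0395) beside a median of 0.48 for all probes. It was 0.048 with the slide as a factor and -0.26 with the authors' values.

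miR-494-3p had log2 levels of 8.95, 8.79 and 11.06 in Tg9, 10.52, 10.76 and 8.74 in Tg79 and 10.30, 8.75 and 9.23 in wild type. Its SD over the 9 arrays was 0.96, at the 95.6th percentile among tested probes. The difference of Tg79 from wild type was 0.58 with a 95% interval of -1.25 to 2.41 (limma adjusted p = 0.684), and that of Tg9 was 0.17 with an interval of -1.66 to 2.00. Neither a rise nor a fall of this size could be told from no change. The other tested members varied less, with an SD of 0.36 at most (miR-370-3p). Over all 16 members, miR-494-3p included, the median SD was 0.168, against 0.209 for other tested probes. Many of these members lay close to the limit, and the part of low intensity in the spread was not tested.

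**Figure D5:**
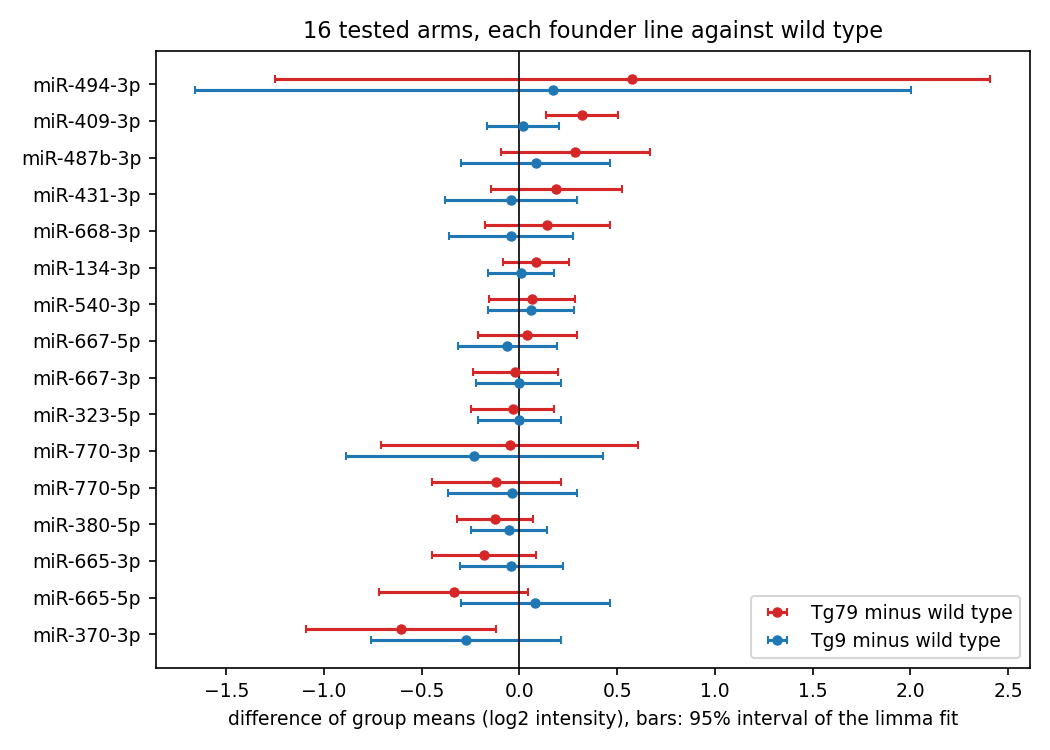
Difference of group means on the log2 scale (horizontal axis) for the 16 tested members, Tg79 (red) and Tg9 (blue) each minus wild type, with the 95% interval of the limma fit as bars. Intervals of miR-409-3p and miR-370-3p for Tg79 lie on 1 side of 0 before adjustment, and that of miR-494-3p runs from -1.25 to 2.41.

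In Tg9 the smallest p among members was that of miR-370-3p, followed by miR-770-3p at -0.23, and miR-380-5p and miR-540-3p at -0.05 and 0.06, all with a limma adjusted p of 0.99. Tg79 and Tg9 were also compared with each other: 0 of 16 members passed, against 0% of all probes, and 2 members and 15.4% of probes had an unadjusted p below 0.05. The lines lie on different slides, so line and slide can be told apart only through the wild-type arrays WT1 and WT2. Groups did not overlap for 2 members, against 19.4% of probes. miR-409-3p was higher in Tg79 by 0.30 ± 0.08 (SE, n = 3 per group; limma adjusted p = 0.162), and miR-665-5p differed by -0.42 ± 0.16 (adjusted p = 0.301). These comparisons share arrays: both lines were set against the same wild-type arrays, and Tg79 enters 3 of the 4. miR-380-5p was above the limit on no Tg79 array, so any difference printed for it with that line, also under other settings, rests on values below the limit and is no measured change.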

How the data were processed

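The authors deposited scanner files of 9 miRNA arrays, which per the file headers give the median spot intensity at 635 nm, with no normalization. A deposited table of the authors' log2 values was used in an alternative; its identifiers stand 5 rows away from the scanner values (Spearman's rho 0.1415 to 0.1707 as given, 1 after the move). The authors' steps behind that table are not given in the sources used here. Intensities were corrected with normexp (offset 50, foreground alone), taken to log2 and quantile normalized over 1265 probes. They were fitted with limma 3.58.1 in R 4.3.3 as a 3-group model with eBayes, which was tested on simulated data. The simulated arrays were independent, with an equal spread for all probes and changes larger than any member difference in this fit. That test therefore does not show whether changes of the size seen here could be found. The call was an adjusted p under 0.05. Arrays carry no depth, so their number, 3 per group, limits the precision. mRNA arrays were not used here, since their probes are not paired with gene names. Members, lists and tests were chosen with earlier results of these data known. Members named in the text are those above the limit on at least 7 arrays, the 8 brightest, the 4 with the smallest p in each comparison, the 3 not tested with the highest ratio to the limit on an array, and 14 best-known arms. Members above the limit on fewer arrays are named with their counts. The alternatives are other limits, background corrections, scalings, filters, variance models, blocks and left-out arrays. Sequences and positions come from RefSeq, build GRCm38.p6.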

Additional observations from a re-analysis of the deposited data

Results flagged for a closer look

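miR-668-3p stood apart on 1 of the 6 transgenic arrays. Its log2 level was 6.55 on Tg79-3, while the other 5 lay between 5.98 and 6.15. Before normalization it lay at 1.28 times the limit on Tg79-3 and at 0.836 to 1.02 times on the other 5, values at the limit. The gap to the nearest array was 0.698 of the whole range, above the critical value of 0.625. There were 17 such tests, and chance flags about 1 in 20. The cause was not tested.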

How the results depend on the processing

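Tested members numbered 16 with the 99th percentile, the highest or the mean plus 2 SD of the negative controls as the limit. They numbered 19 with 2 arrays required or with the 99th percentile of blank spots (the latter chosen after seeing the data). With all 9 arrays required 9 members passed, beside 23.4% of the other miRNA probes. With arrays left out 15 to 16 members were tested. Under the other limits only members were counted, so whether their share stays below that of other probes there was not tested. No member was called in any comparison with arrays left out, the 2 Tg9 arrays together included; medians then ranged from -0.037 to 0.033 for both lines, -0.026 to 0.063 for Tg79, -0.068 to 0.0075 for Tg9 and -0.00071 to 0.099 for Tg79 against Tg9. With the replicate number as a block 0 members were called in each comparison. Deviations of same-numbered arrays from their group means correlated at -0.43 to 0.38. Arrays of unlike number were not compared in this way, so whether the numbers pair the arrays was not settled. For Tg79 against wild type 1 member (miR-409-3p) was called under some variance models. These were trend and robust (6.39% of all probes called), array weights (15.8%) and the slide as a random block (7.78%). With the authors' values 2 of 14 members (miR-370-3p, miR-665-5p) and 24.9% of 398 probes were called. The 75th percentile scaling over probes above the limit on all 9 arrays was chosen after seeing the data. It called 6 members and 36.9% of probes. For Tg79 against Tg9 1 (miR-409-3p) was called with the slide as a random block, where 6.79% of all probes were. The bright-probe scaling moved the median of all probes to 0.27 (both lines), 0.48 (Tg79), 0.07 (Tg9) and 0.41 (Tg79 against Tg9). The medians of members moved to 0.30, 0.54, 0.098 and 0.44. With the authors' values the medians of all were -0.55, -0.88, -0.20 and -0.62, and of members -0.54, -0.65, -0.38 and -0.42. Over all tested probes (501) the 23 calls for Tg79 became 79 with array weights and 185 with the bright-probe scaling. With the authors' values 99 of 398 probes were called. Calls numbered 0 with no filter, the background column, the replicate block, the slide as a factor, or without Tg9-3, Tg79-2, WT1 or WT3. The 52 member differences were fitted again under 24 settings, and each difference in each setting was counted once. With other processing 100 changed sign, 588 kept sign and call, and 11 kept the sign and gained a call. With arrays left out 50 changed sign, from 25 of the differences, and 458 kept sign and call. The cause was not tested, and the Tg79 values of miR-380-5p rest on arrays where it was below the limit. With the deposited background column, the values for both lines were miR-431-3p -0.015, miR-323-5p 0.011, miR-668-3p -0.0067, miR-134-3p -0.0071, miR-370-3p 0.082, miR-380-5p 0.0014, miR-667-3p 0.0054, miR-665-3p 0.0071, miR-770-3p 0.10. For Tg79 they were miR-409-3p -0.0030, miR-431-3p -0.18, miR-323-5p 0.023, miR-668-3p -0.0045, miR-134-3p -0.0052, miR-370-3p 0.18, miR-380-5p 0.0034, miR-667-3p 0.010, miR-665-3p 0.0093, miR-770-3p 0.20, miR-665-5p 0.00018. For Tg9 they were miR-431-3p 0.15, miR-134-3p -0.0090, miR-667-3p 0.00044, miR-665-3p 0.0048, miR-665-5p -0.0039. For Tg79 against Tg9 they were miR-409-3p -0.018, miR-665-5p 0.0040, miR-431-3p -0.32, miR-370-3p 0.19. Under 75th percentile scaling over all probes, the values for both lines were miR-431-3p -0.025, miR-323-5p 0.068, miR-380-5p 0.045, miR-667-3p 0.0055. For Tg79 they were miR-323-5p 0.072, miR-380-5p 0.038, miR-667-3p 0.0014, miR-667-5p -0.024. For Tg9 they were miR-323-5p 0.065, miR-668-3p 0.028, miR-380-5p 0.053, miR-667-3p 0.0097. With the bright-probe scaling, the values for both lines were miR-770-5p 0.15, miR-323-5p 0.36, miR-380-5p 0.34, miR-667-3p 0.30, miR-665-3p 0.10, miR-667-5p 0.24, miR-665-5p 0.15. For Tg79 they were miR-770-5p 0.31, miR-323-5p 0.59, miR-380-5p 0.55, miR-667-3p 0.52, miR-665-3p 0.24, miR-770-3p 0.13, miR-665-5p 0.18. For Tg9 they were miR-323-5p 0.14, miR-668-3p 0.10, miR-380-5p 0.13, miR-667-3p 0.085. For Tg79 against Tg9 they were miR-665-5p 0.050, miR-370-3p 0.051. With cyclic loess, the values for both lines were miR-667-3p 0.0088, miR-667-5p 0.0080. For Tg79 they were miR-667-3p 0.012. For Tg9 they were miR-323-5p 0.0057, miR-667-3p 0.0057. With the authors' values, the values for both lines were miR-487b-3p -0.18, miR-431-3p -0.50, miR-668-3p -0.56, miR-134-3p -0.40, miR-540-3p -0.42. For Tg79 they were miR-487b-3p -0.26, miR-431-3p -0.53, miR-668-3p -0.30, miR-134-3p -0.46, miR-540-3p -0.68, miR-494-3p -0.13, miR-667-5p -0.63. For Tg9 they were miR-409-3p -0.24, miR-487b-3p -0.093, miR-134-3p -0.33, miR-540-3p -0.16, miR-665-5p -0.075. For Tg79 against Tg9 they were miR-431-3p -0.049. With the slide as a factor, the values for both lines were miR-770-3p 0.14, miR-667-5p 0.041. For Tg79 they were miR-323-5p 0.0056, miR-134-3p -0.014, miR-770-3p 0.45. For Tg9 they were miR-409-3p -0.036, miR-431-3p 0.11, miR-540-3p -0.043, miR-494-3p -0.70. For Tg79 against Tg9 they were miR-431-3p -0.071. With array weights, the values for Tg9 were miR-431-3p 0.0029, miR-494-3p -0.18, miR-665-5p -0.013. With the slide as a random block, the values for Tg9 were miR-323-5p 0.00068, miR-134-3p -0.00078, miR-667-3p 0.012. Over left-out arrays Tg9 minus wild type ranged for miR-134-3p -0.022 to 0.058, miR-323-5p -0.022 to 0.039, miR-409-3p -0.036 to 0.073, miR-431-3p -0.11 to 0.032, miR-487b-3p -0.033 to 0.31, miR-494-3p -0.56 to 0.61, miR-665-3p -0.12 to 0.015, miR-665-5p -0.10 to 0.17, miR-667-3p -0.14 to 0.065, miR-668-3p -0.089 to 0.043, miR-770-3p -0.48 to 0.048, miR-770-5p -0.11 to 0.0059. Over left-out arrays Tg79 minus wild type ranged for miR-323-5p -0.10 to 0.056, miR-540-3p -0.019 to 0.12, miR-667-3p -0.063 to 0.026, miR-667-5p -0.046 to 0.11, miR-668-3p -0.017 to 0.27, miR-770-3p -0.30 to 0.23, miR-770-5p -0.26 to 0.027. Over left-out arrays both lines minus wild type ranged for miR-323-5p -0.053 to 0.027, miR-431-3p -0.0032 to 0.15, miR-667-3p -0.080 to 0.036, miR-667-5p -0.10 to 0.038, miR-668-3p -0.031 to 0.11, miR-770-3p -0.39 to 0.14.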
